A study of Mus musculus with 8 samples.

Results

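The 10 genes examined here encode receptors for extracellular ATP, other nucleotides and adenosine, and the surface enzymes that turn ATP into adenosine. They were taken by name from the 46078 gene identifiers of the count tables: the nucleotide receptors *P2ry2*, *P2ry6* and *P2ry14*, the ATP-gated channels *P2rx4* and *P2rx7*, the ectonucleotidases *Entpd1* and *Nt5e*, and the adenosine receptors *Adora2a*, *Adora2b* and *Adora3*. All 10 were found and all 10 passed the filter on low counts, which kept 14736 genes. The tissue was the infarct of wild-type C57BL/6J male mice aged 18 months, 7 weeks after DH stroke, a model that joins occlusion of the distal middle cerebral artery to a period of hypoxia. Every animal had this stroke, and no animal without stroke was compared. From 1 week after stroke, subcutaneous injections were given 3 times per week for 6 weeks. They held sterile PBS (vehicle, n = 4) or 2-hydroxypropyl-β-cyclodextrin (HPβCD, a lipid-binding ring of sugars) at 4 g/kg (n = 4). Infarcts were cut out by eye.

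ATP is kept inside cells and leaks out of them when they are damaged or stressed, so that outside the cell it acts as an alarm signal. P2X receptors are ion channels that ATP opens, and P2Y receptors are G protein-coupled receptors for ATP, ADP, UTP, UDP or UDP-sugars. The ectonucleotidase encoded by *Entpd1* (CD39) strips phosphates from ATP and ADP to leave AMP, and that encoded by *Nt5e* (CD73) turns AMP into adenosine, which acts on its own receptors and is widely known to restrain immune cells. Microglia and macrophages carry many of these proteins.

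The 8 libraries held 16616909 to 32933164 gene counts, and vehicle animal 2 was the deepest. Vehicle animals 1 and 3 stood apart in their cell makeup. The summed level of 8 neuron markers was 957 and 6000 CPM (counts relative to library size, scaled for library composition) in them and 9.74 to 83.6 CPM in the other 6 libraries. Vehicle animal 1 alone was also high for 8 markers of striatal projection neurons, at 1491 CPM against 68.1 to 176 CPM. In the opposite direction lay the summed level of 10 markers shared by macrophages and microglia. It was 3077 to 4083 CPM in vehicle and 4672 to 8663 CPM in HPβCD infarcts, with no overlap between the groups. The largest part of this sum was *Ctss*, at 1683 to 2140 CPM in vehicle and 2784 to 5476 CPM in HPβCD infarcts. The mean log2 CPM of the same 10 markers overlapped between the groups. The summed levels of foamy macrophage and fibroblast markers were also higher in HPβCD infarcts without overlap, and those of B lymphocyte and plasma cell markers lower. Taken singly, 4 of the 10 markers shared by macrophages and microglia were apart. For foamy macrophages, fibroblasts, B lymphocytes and plasma cells these counts were 2 of 8, 5 of 7, 3 of 6 and 3 of 6. Of all tested genes 16.8% were apart. In bulk tissue, fewer cells of a type and less RNA per cell cannot be told apart.

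The quasi-likelihood test of edgeR, with Benjamini-Hochberg adjusted p-values, called 0 of the 10 genes at a threshold of 0.05, against 1.95% of all tested genes. At an unadjusted p under 0.05 there were 4, *P2rx4*, *P2ry2*, *P2ry6* and *Adora2a*, against 27.8% of all tested genes. DESeq2 called 3 of the 10, against 17.8% of all genes, and limma-voom called 3, against 22.1%. In both tests these were *P2rx4*, *P2ry2* and *P2ry6*, each higher in HPβCD infarcts. Vehicle and HPβCD values were wholly apart in 2 of the 10, *P2rx4* and *Adora2a*, against 16.8% of all tested genes. Of the 10 log2 fold changes, 7 were above 0 and 3 below, with a median of 0.28 where the median of all tested genes was -0.05.

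**Figure D1:**
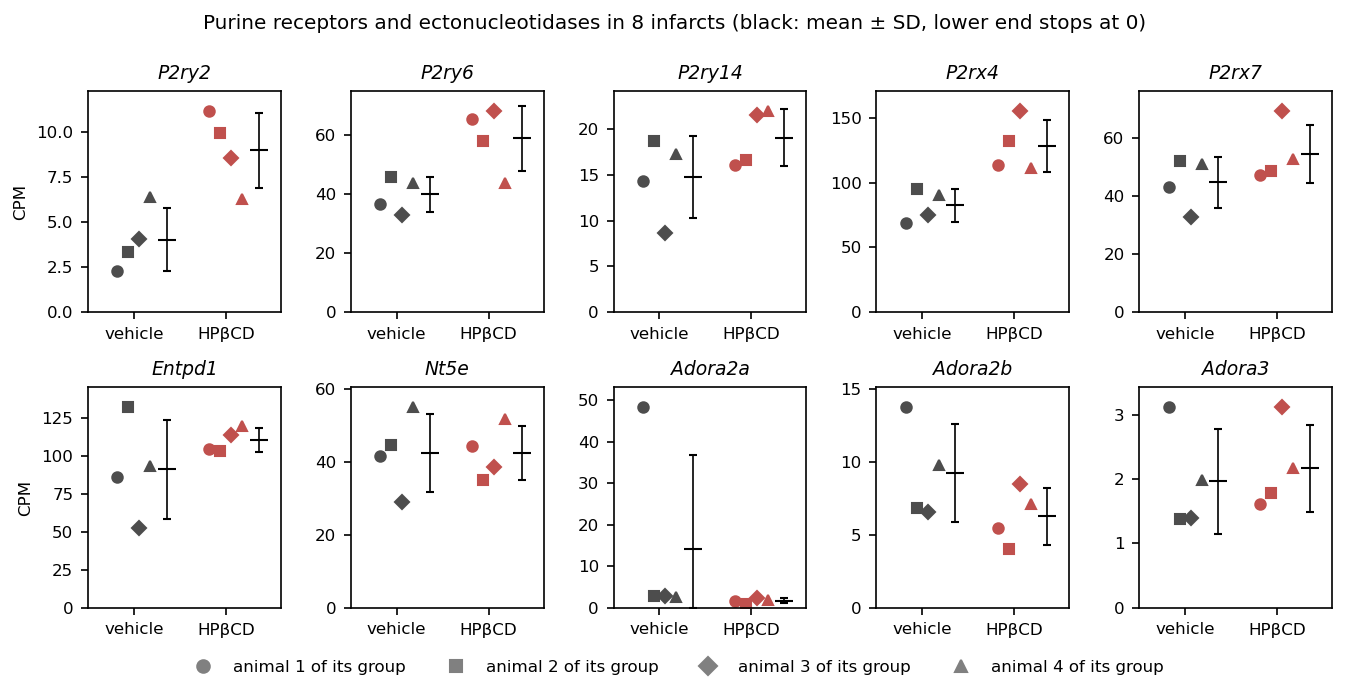
Level of each of the 10 genes in CPM, 1 panel per gene, with 1 point per animal (grey, vehicle; red, HPβCD; the symbol gives the number of the animal within its group) and the mean ± SD in black. *P2rx4* lies higher in all 4 HPβCD animals than in any vehicle animal, and the mean of *Adora2a* in the vehicle group rests on animal 1, at 48.4 CPM.

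*P2rx4* encodes an ATP-gated channel that resides largely in lysosomes and reaches the surface of activated microglia and macrophages. It lies on chromosome 5 (GRCm38, 122707544 to 122729738, plus strand). Vehicle infarcts had 69.0, 95.5, 74.8 and 90.6 CPM in animals 1 to 4. HPβCD infarcts had 114, 132, 155 and 111 CPM. Every HPβCD value exceeded every vehicle value. The log2 fold change was 0.64 (SE 0.16, 95% interval 0.27 to 1.01), or 1.55-fold, and edgeR gave an adjusted p of 0.0686. When single animals were left out it stayed between 0.54 and 0.72, and without vehicle animals 1 and 3 together it was 0.48.

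*P2rx7*, the channel that needs high ATP concentrations and is known for triggering release of interleukin 1β, is the nearest relative in position, 16111 bases upstream of *P2rx4* on the same strand (122643911 to 122691432). It stood at 43.3, 52.1, 32.8 and 51.1 CPM in vehicle animals 1 to 4. The HPβCD animals were at 47.3, 48.8, 69.3 and 53.1 CPM. The ranges overlapped, with HPβCD animals 3 and 4 above the highest vehicle animal and HPβCD animals 1 and 2 inside the vehicle range. The log2 fold change was 0.29 (SE 0.19, 95% interval -0.15 to 0.72; edgeR adjusted p = 0.371), an interval that holds both no change and the value of *P2rx4*. Leaving out HPβCD animal 3 gave 0.15, leaving out vehicle animal 3 gave 0.16, and it was 0.10 without vehicle animals 1 and 3. The per-animal log2 ratio of *P2rx4* to *P2rx7* was 0.89 ± 0.22 in vehicle and 1.23 ± 0.16 in HPβCD infarcts (SD, n = 4 each). That difference of 0.34 did not pass an exact two-sided permutation test (p = 0.0857, or 0.152 adjusted over the 4 gene pairs compared, which were picked after the values had been seen).

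The 250 bases before the RefSeq start of each of these adjoining genes are shown, as they lie side by side on the same strand. The groups were apart in *P2rx4* alone of the pair, but the *P2rx4* to *P2rx7* ratio did not pass the permutation test. Any bearing of these bases on the levels was not tested. Windows were found for 8 of the 10 genes in the RefSeq table (GRCm38.p6). Capitals mark matches, on either strand, to the AP-1 letters TGANTCA or the GC box letters GGGCGG.
P2rx7: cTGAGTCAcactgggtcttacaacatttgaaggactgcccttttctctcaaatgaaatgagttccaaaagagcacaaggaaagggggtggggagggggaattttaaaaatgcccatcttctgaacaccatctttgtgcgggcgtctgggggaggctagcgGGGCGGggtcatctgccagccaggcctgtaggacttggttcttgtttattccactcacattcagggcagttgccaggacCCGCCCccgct
P2rx4: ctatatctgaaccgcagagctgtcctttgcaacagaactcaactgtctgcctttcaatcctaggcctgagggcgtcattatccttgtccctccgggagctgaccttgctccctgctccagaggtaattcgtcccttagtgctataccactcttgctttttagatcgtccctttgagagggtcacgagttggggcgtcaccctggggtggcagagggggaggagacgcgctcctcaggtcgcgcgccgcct

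The *P2rx7* window (chr5:122643677-122643926, plus strand) held 1 AP-1 match, beginning 249 bases before the start, and 2 GC box matches, beginning 90 and 11 bases before it. The *P2rx4* window (chr5:122707294-122707543, plus strand) held neither, nor a match to the E-box letters CACGTG, the PU.1 letters GAGGAAGT, the TATA box letters TATAAA or the CCAAT box letters CCAAT. It held 13 CpG dinucleotides against 6 in that of *P2rx7*, the latter being the median of the 32851 windows in the table. Over all windows, 6.75% held the AP-1 letters, 32.74% the GC box, 6.02% the E-box, 2.44% the PU.1 letters, 12.37% the TATA box and 33.85% the CCAAT box.

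*P2ry2* encodes a receptor for ATP and UTP that is known for drawing phagocytes toward dying cells. It lies on chromosome 7 (100996568 to 101012866, minus strand), and the study had picked it from these same libraries, so its direction is not independent evidence. It was scarce in vehicle infarcts, at 2.26, 3.33, 4.06 and 6.40 CPM in animals 1 to 4. In HPβCD infarcts it was at 11.1, 9.93, 8.59 and 6.27 CPM. The groups met at one point only, where HPβCD animal 4 lay just under vehicle animal 4. On the log2 scale the fold change was 1.16 (SE 0.33, 95% interval 0.41 to 1.91), or 2.24-fold, with an edgeR adjusted p of 0.0801.

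*P2ry6*, a receptor for UDP that is known for setting off phagocytosis in microglia, lies 21918 bases from *P2ry2* on the same strand (100937630 to 100974649). It was at 36.7, 45.7, 32.9 and 43.8 CPM in vehicle animals 1 to 4. The HPβCD animals 1 to 4 had 65.4, 58.0, 67.8 and 43.7 CPM. Here too HPβCD animal 4 was the lowest of its group and lay within the vehicle range, while the other 3 lay above it. The fitted log2 fold change was 0.56 (SE 0.18, 95% interval 0.16 to 0.97; edgeR adjusted p = 0.0948). The log2 ratio of *P2ry2* to *P2ry6* was -3.36 ± 0.58 in vehicle and -2.71 ± 0.21 in HPβCD infarcts (SD, n = 4 each; exact permutation p = 0.114).

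*P2ry14*, a receptor for UDP-glucose, lies on chromosome 3 (59113855 to 59153618, minus strand), on the side of *P2ry13* and *P2ry12*. Its vehicle values were 14.4, 18.7, 8.66 and 17.3 CPM, and its HPβCD values 16.1, 16.6, 21.5 and 21.9 CPM. The groups overlapped, and vehicle animal 3 was lowest. Its log2 difference was 0.37 (SE 0.25, 95% interval -0.20 to 0.93; edgeR adjusted p = 0.375), and it was 0.09 without vehicle animals 1 and 3.

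*Entpd1*, on chromosome 19 (40612366 to 40741602, plus strand), varied more among vehicle animals than between the groups. Vehicle animals 1 to 4 had 86.2, 132, 52.2 and 93.5 CPM. The HPβCD animals lay close together, at 104, 103, 113 and 120 CPM, all inside the vehicle range. Its log2 fold change of 0.27 (SE 0.25, 95% interval -0.28 to 0.83; edgeR adjusted p = 0.514) became -0.02 without vehicle animals 1 and 3.

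*Nt5e*, on chromosome 9 (88327197 to 88372092, plus strand), had the smallest difference of the 10. It was at 41.6, 44.6, 29.1 and 55.1 CPM in vehicle and at 44.4, 35.0, 38.7 and 51.8 CPM in HPβCD infarcts, in animals 1 to 4. The means were 42.6 ± 10.7 and 42.5 ± 7.33 CPM (SD, n = 4 each). The 95% interval of the log2 fold change ran from -0.48 to 0.48 around 0.00, so differences up to 0.48 in either direction lie within the error, and the sign turned under several alternatives. Since *Entpd1* and *Nt5e* act in series, their log2 ratio was also taken per animal. It was 1.05 ± 0.36 in vehicle and 1.38 ± 0.19 in HPβCD infarcts, and the difference of 0.33 did not pass (exact permutation p = 0.171).

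The adenosine receptors behaved unlike one another. *Adora2a*, on chromosome 10 (75316877 to 75334784, plus strand), encodes the receptor that striatal projection neurons of the indirect pathway carry in abundance and that lymphocytes and myeloid cells carry as well. It was at 48.4, 2.81, 2.91 and 2.69 CPM in vehicle animals 1 to 4. The HPβCD animals had 1.72, 1.04, 2.47 and 1.89 CPM. Even the lowest vehicle value exceeded the highest HPβCD value, but vehicle animal 1 was 17.3-fold above the mean of the other 3, which was 2.80 ± 0.11 CPM. The fitted log2 fold change was -2.98 (SE 1.12, 95% interval -5.59 to -0.38; edgeR adjusted p = 0.138), and without vehicle animal 1 it was -0.64. DESeq2 set no p-value for this gene.

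The same library held the striatal genes. *Penk*, an abundant striatal marker, spanned 39.4 to 224 CPM in vehicle and 49.9 to 162 CPM in HPβCD infarcts. *Drd2*, the dopamine receptor of the same neurons, was at 21.6 CPM in vehicle animal 1 and at 0 to 0.111 CPM in the other 7. *Gpr6* was at 12.4 CPM there and at 0 to 0.121 CPM elsewhere. Vehicle animal 3, with the most neuron markers, had 2.91 CPM of *Adora2a* and 0.0605 CPM of *Drd2*. For *Adora1*, the widely neuronal adenosine receptor, the order was the other one, with 65.7 CPM in the third vehicle animal and 23.7 CPM in the first. Vehicle animals 2 and 4 had 6.08 and 9.63 CPM of *Adora1*, and the HPβCD animals 1.29 to 4.19 CPM, so the groups did not overlap. The neuron markers *Snap25* and *Syt1* reached 3023 and 1616 CPM in vehicle and at most 29.9 and 28.1 CPM in HPβCD infarcts. For *Adora1* the fit gave -3.32 ± 0.85 (SE) in log2 units (edgeR adjusted p = 0.0724), and -1.56 without vehicle animals 1 and 3. How much of either difference the neuron content accounts for was not tested.

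**Figure D2:**
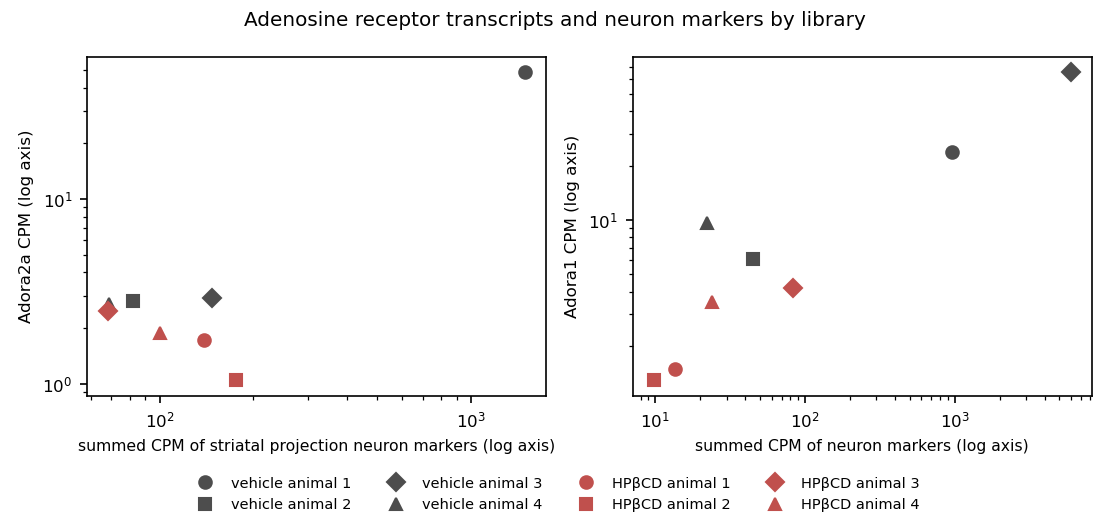
Adenosine receptor level against summed neuronal markers in each of the 8 libraries, all axes logarithmic, in CPM. On the left *Adora2a* is plotted against 8 striatal projection neuron markers, where vehicle animal 1 lies alone at 1491 and 48.4 CPM, and on the right *Adora1* against 8 neuron markers, where vehicle animals 3 and 1 lie highest.

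*Adora2b*, the low-affinity adenosine receptor, lies on chromosome 11 (62248984 to 62266453, plus strand). It was at 13.7, 6.83, 6.54 and 9.79 CPM in vehicle animals 1 to 4 and at 5.46, 4.04, 8.48 and 7.11 CPM in HPβCD animals 1 to 4. The groups overlapped, with the highest value again in vehicle animal 1. A log2 fold change of -0.55 was fitted (SE 0.31, 95% interval -1.27 to 0.16; edgeR adjusted p = 0.287), or -0.29 without vehicle animal 1.

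*Adora3*, on chromosome 3 (105870858 to 105908926, plus strand), encodes a receptor that rodent mast cells carry. It had the lowest level per length in vehicle infarcts and was level with *Adora2a* in HPβCD infarcts. Its values were 1.38 to 3.11 CPM in vehicle and 1.61 to 3.11 CPM in HPβCD infarcts, with overlapping groups (log2 fold change 0.15, SE 0.35; edgeR adjusted p = 0.824). Its value is uncertain, since 20.89% of its exon length is shared with *Tmigd3* on the same strand, and how reads in the shared part were counted is not stated. *Tmigd3* itself had 0 to 14 counts per library. The summed level of 6 mast cell markers was 38.0 to 48.9 CPM in the vehicle group and 32.4 to 38.7 CPM in the other, which overlap, and *Kit* made up most of it (33.9 to 41.0 and 27.0 to 33.8 CPM) while *Cpa3*, particular to mast cells, was at 1.53 to 4.54 and 1.56 to 2.76 CPM.

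Levels of different genes were compared per kilobase of merged exons. In vehicle infarcts *Entpd1* was first at 16.3 ± 5.85 CPM per kb, followed by *P2ry6* at 13.8 ± 2.07 and *P2rx4* at 11.7 ± 1.80 (SD, n = 4 each). These did not differ beyond their spread, as each range overlapped the next. *P2rx7* came next at 7.51 ± 1.496 CPM per kb and lay wholly below *P2rx4*. *Adora2b*, *Nt5e* and *Adora2a* had means of 5.0, 4.95 and 4.64 CPM per kb with overlapping ranges, and *P2ry14*, *P2ry2* and *Adora3* followed at 1.34, 1.02 and 0.528. The rank and overlap of *Adora2a* rest on vehicle animal 1, at 15.8 CPM per kb. Its lowest vehicle animal was at 0.878, where the lowest of *Nt5e* and *Adora2b* were at 3.38 and 3.54. The other 3 vehicle animals had 2.69 to 2.91 CPM of *Adora2a*.

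In HPβCD infarcts *P2ry6* (20.3 ± 3.76), *Entpd1* (19.7 ± 1.42) and *P2rx4* (18.2 ± 2.88 CPM per kb) again overlapped one another at the top. *P2rx7* stood apart on both sides at 9.15 ± 1.69 CPM per kb. *Nt5e* (4.94), *Adora2b* (3.399), *P2ry2* (2.29) and *P2ry14* (1.72) followed, each overlapping its neighbour among these 4. *Adora2a* and *Adora3* lay apart below them and were last, both at 0.581 CPM per kb. Merged exons include those of rare transcripts, so a gene with long alternative exons, such as *P2ry14* with 11059 bases, is understated.

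**Figure D3:**
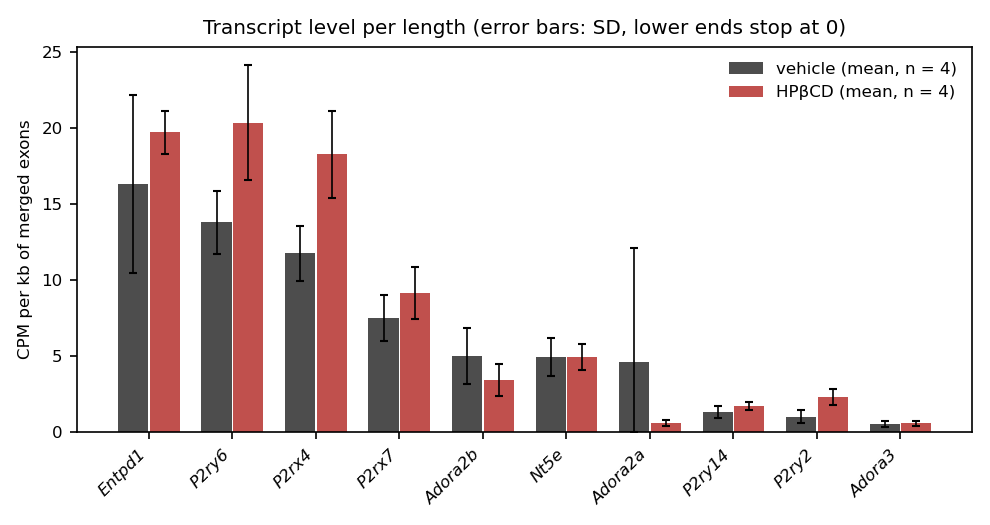
Mean level of the 10 genes per kilobase of merged exons in vehicle (grey) and HPβCD infarcts (red), in CPM per kb, with the SD over 4 animals. *Entpd1*, *P2ry6* and *P2rx4* are highest in both groups, and the SD of *Adora2a* in vehicle infarcts exceeds its mean.

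The summed level of the 10 macrophage and microglia markers was higher in HPβCD infarcts. Each gene was therefore also set against the mean log2 CPM of those 10 markers in the same library. Of these markers 8 had a log2 fold change above 0, and none was at 0 in any library. By edgeR 0 of the 10 were called, against 1.95% of all tested genes, and 5 had an unadjusted p under 0.05, against 27.8%. DESeq2 called 5, all higher, against 17.8% of all tested genes. The most abundant, *Ctss* and *Csf1r*, had log2 fold changes of 0.95 and 0.13. Relative to the markers, the groups overlapped for every one of the 10 genes other than *Adora2a*. The differences were 0.20 for *P2rx4*, 0.11 for *P2ry6*, -0.03 for *P2ry14*, -0.15 for *P2rx7* and -0.09 for *Entpd1*. *P2ry2* kept a difference of 0.77, with -5.41 ± 0.60 in vehicle and -4.64 ± 0.45 in HPβCD infarcts (SD, n = 4 each). *Nt5e*, *Adora2b*, *Adora3* and *Adora2a* were at -0.42, -0.98, -0.28 and -2.14. The mean of the 10 markers itself differed by 0.44, with overlapping groups. HPβCD animal 4, the lowest of its group for *P2ry2*, *P2ry6* and *P2rx4*, had the lowest summed level of these markers in its group, 4672 CPM. *Ctss* made up 2784 CPM of this sum. HPβCD animal 3, with the highest sum at 8663 CPM, of which *Ctss* made up 5476 CPM, was highest of its group for *P2rx4* and *P2ry6*. For *P2ry2*, at 8.59 CPM, it lay below HPβCD animals 1 and 2, at 11.1 and 9.93 CPM. The part of cell number in the differences was not tested.

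For the genes whose groups did not overlap, the genes with the most alike pattern were sought among 13947 others with a mean of at least 1 CPM, by the root mean square distance of log2 CPM centred on each gene's mean over the 8 libraries. For *P2rx4* these were *Plcb2* (0.06), *Man1c1* (0.07) and *Sgsh* (0.08), where the SD of *P2rx4* itself was 0.40. For *Adora2a*, with an SD of 1.64, they were *Sh3rf2* (0.33), *Syt6* (0.38) and *Rxrg* (0.57).

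The other genes of the pathway were 32 receptors, enzymes, transporters and release channels. Of these 31 were matched in the tables (*Pnp* was not) and 23 were tested. At an edgeR adjusted p of 0.05, 2 of the 23 passed, *Panx1* and *Slc29a1*, both higher in HPβCD infarcts, where 1.17% of all tested genes were called higher. DESeq2 called 11, of which 7 were higher and 4 lower, against 17.8% of all tested genes. Values were wholly apart in 12 of the 23, against 16.8% of all tested genes. Of the 23 log2 fold changes 15 were above 0, with a median of 0.26.

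*Panx1* encodes a channel through which ATP can leave cells. It lies on chromosome 9 (15002128 to 15045478, minus strand). Its vehicle values were close together, at 19.5, 20.8, 21.9 and 22.9 CPM, and its HPβCD values were 46.8, 37.4, 46.0 and 30.0 CPM. The groups were well apart. It rose 1.89-fold, or by 0.91 ± 0.17 (SE) in log2 units (edgeR adjusted p = 0.0483). The vesicular nucleotide transporter *Slc17a9* had a log2 fold change of 0.86 at a low level, 2.43 ± 0.99 against 4.46 ± 0.60 CPM (SD, n = 4 each; edgeR adjusted p = 0.119), and 0.45 without vehicle animals 1 and 3. The ATP-permeable channel genes *Gja1* and *Lrrc8a* had log2 fold changes of -0.26 and 0.23 with overlapping groups, the latter uncertain because 66.226% of its exon length is shared with *Gm28035* on the same strand.

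*Slc29a1* encodes a nucleoside transporter of the plasma membrane that carries adenosine along its gradient, and lies on chromosome 17 (45585200 to 45599606, minus strand). It was at 38.3, 44.0, 31.0 and 42.7 CPM in vehicle and 76.1, 64.4, 76.7 and 55.3 CPM in HPβCD infarcts. The groups were apart, and it rose 1.75-fold (log2 fold change 0.80, SE 0.17; edgeR adjusted p = 0.0499). Both calls were lost on leaving out any one of vehicle animals 1 and 4 or HPβCD animals 1, 2 and 3. In each of these fits edgeR called at most 4 of all tested genes, so the loss was not particular to *Panx1* and *Slc29a1*. Over every single animal left out, the log2 fold changes stayed at 0.84 to 1.04 for *Panx1* and 0.71 to 0.90 for *Slc29a1*. Without vehicle animals 1 and 3 together, edgeR adjusted p-values were 0.0717 and 0.0854. The lysosomal relative *Slc29a3* averaged 129 ± 28.8 CPM with vehicle and 212 ± 22.0 CPM with HPβCD (SD, n = 4 each; log2 fold change 0.71; edgeR adjusted p = 0.0692). Transporters of the same role with negative values were *Slc28a2* and *Slc29a2*, at -0.91 and -0.98 in log2 units with overlapping groups (edgeR adjusted p = 0.119 and 0.23). *Slc28a2* was called lower by limma-voom, and *Slc29a2* was at 0.0504 without vehicle animals 1 and 3.

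Adenosine kinase, *Adk*, which removes adenosine by turning it into AMP and in the adult brain is mainly astrocytic, lay in the other direction. Its range was 77.9 to 101 CPM in vehicle and 50.7 to 60.9 CPM in HPβCD infarcts, with no overlap (log2 fold change -0.62, SE 0.13; edgeR adjusted p = 0.0522). The summed level of 6 astrocyte markers was 1856 to 8669 CPM in vehicle and 357 to 2230 CPM in HPβCD infarcts, and the 2 most abundant of them, *Slc1a2* and *Gfap*, had log2 fold changes of -3.18 and -1.15. Their part in the difference of *Adk* was not tested. Adenosine deaminase, *Ada*, had a log2 fold change of 0.07.

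Surface enzymes outside the listed pair mostly had values above 0, though none passed by edgeR. *Entpd2*, which favours ATP over ADP, averaged 4.36 ± 1.08 CPM with vehicle and 9.38 ± 1.81 CPM with HPβCD, without overlap (log2 fold change 1.11, SE 0.24; edgeR adjusted p = 0.0548). Its count is uncertain, as 28.759% of its exon length is shared with *Npdc1* on the same strand. *Entpd3* and *Enpp1*, which splits ATP into AMP and pyrophosphate, had log2 fold changes of 1.19 and 0.79. The *Enpp1* value was 0.43 without vehicle animals 1 and 3. *Enpp3*, *Acpp* and *Alpl* were at 0.79, 0.60 and 0.56.

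*Enpp2*, better known as autotaxin for its production of lysophosphatidic acid, had the highest level per length of the tested pathway genes (124 and 79 CPM per kb) and lay lower in HPβCD infarcts. Its mean was 714 ± 63.2 CPM with vehicle and 456 ± 85.4 CPM with HPβCD (SD, n = 4 each; log2 fold change -0.65, SE 0.17; edgeR adjusted p = 0.0708). The groups did not overlap. Oligodendrocytes carry it too, and the summed level of 6 oligodendrocyte markers was 1518 to 4876 CPM with vehicle and 158 to 1930 CPM with HPβCD, with a log2 fold change of -1.65 for *Mbp*. The part of these cells in the difference was not tested.

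Among the other receptors, *P2ry12*, the ADP receptor that marks homeostatic microglia, had 53.5, 33.1, 44.7 and 46.6 CPM in vehicle and 13.7, 18.9, 29.1 and 26.0 CPM in HPβCD infarcts. The groups were apart, and the fit gave -1.02 ± 0.26 (SE) in log2 units (edgeR adjusted p = 0.0658). Its neighbour *P2ry13*, another ADP receptor 5389 bases away, had a log2 fold change of -0.01 (95% interval -0.47 to 0.44). The log2 ratio of *P2ry12* to *P2ry13* was 0.66 ± 0.20 in vehicle and -0.35 ± 0.42 in HPβCD infarcts, and no HPβCD animal reached the lowest vehicle animal (exact permutation p = 0.0286, the smallest this design allows, or 0.114 adjusted over the 4 pairs). Of 8 microglia markers edgeR called 1, *Siglech*, which was lower, against 1.95% of all tested genes. DESeq2 called 3, of which 1 was higher and 2 lower, against 17.8%. Their summed level overlapped, at 590 to 1181 CPM with vehicle and 841 to 1312 CPM with HPβCD. Another abundant one, *Cx3cr1*, had a log2 fold change of -1.14. The part of microglia in the difference of *P2ry12* was not tested.

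*P2rx5*, an ATP-gated channel, spanned 1.24 to 3.39 CPM with vehicle and 5.74 to 8.21 CPM with HPβCD, without overlap (log2 fold change 1.45, SE 0.31; edgeR adjusted p = 0.0516). *P2ry1* and *P2rx6* had log2 fold changes of 0.09 and 0.26 with intervals that include 0. *P2rx1*, *P2rx2*, *P2rx3*, *P2ry4*, *Entpd8*, *Panx2*, *Slc28a1* and *Slc28a3* did not pass the filter on low counts, and *P2ry4* and *Entpd8* had no count in any library.

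**Figure D4:**
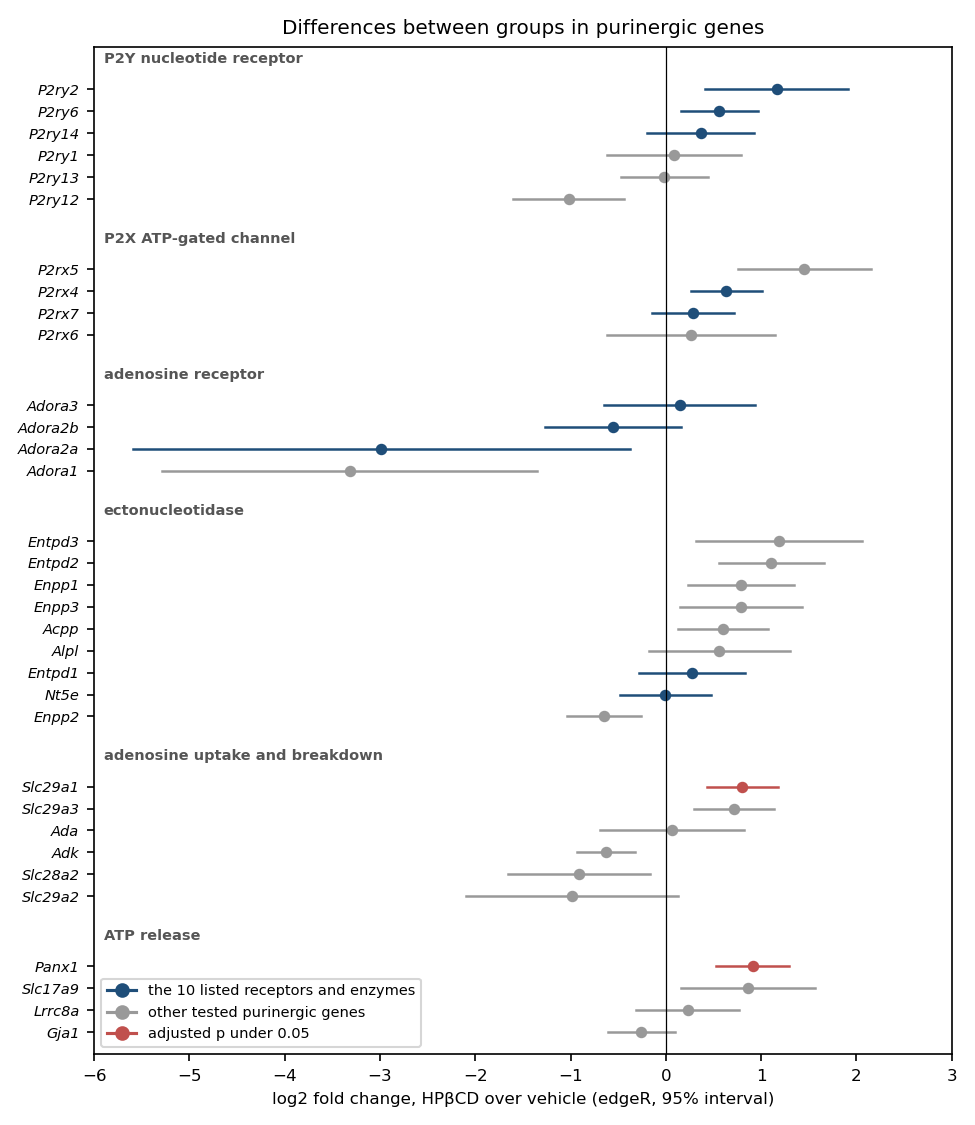
Log2 fold change of HPβCD over vehicle infarcts with its 95% interval for the 33 tested purinergic genes, grouped by role (blue, the 10 listed genes; grey, other genes; red, edgeR adjusted p under 0.05). Only *Slc29a1* and *Panx1* are red, and *Adora2a* and *Adora1* have the widest intervals.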

How the data were processed

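Polyadenylated RNA of 8 infarcts was sequenced as stranded paired-end libraries. The authors trimmed reads with Trimmomatic 0.32, aligned them to GRCm38 with STAR 2.5.2b and counted them with htseq-count, and deposited raw counts per Ensembl gene, 1 table per animal. The strand option and annotation release of the counting are not given in the sources used here. Between 26.61% and 36.59% of counted reads or alignments in a library were assigned to no single gene and were left out. This includes the 4.05% to 6.7% that were ambiguous between genes. Symbols (45143 of 46078 identifiers), coordinates and exon lengths came from GENCODE M21 (GRCm38).

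Differences were tested with edgeR 4.0.16 in R 4.3.3 (robust quasi-likelihood F test, TMM scaling, filterByExpr, 14736 genes, Benjamini-Hochberg adjustment over all of them, threshold 0.05), with no covariate. DESeq2 1.42.0, which the study used, and limma-voom (limma 3.58.1) were alternatives. SEs and intervals derive from the F statistic. CPM were scaled by TMM, with a prior count of 2 on the log2 scale. Exact permutation tests were two-sided over animals. P-values measure the spread between 4 animals per group. No batch is labelled. Counts of any 2 libraries differed by far more than sampling noise (chi-square at least 20.3 times its degrees of freedom), so none merely repeats another. Each was taken as 1 animal from the replicate labels, which this comparison cannot test.

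The 10 genes and the lists were chosen with earlier results of these data known. Named were the 10 genes, the other purinergic genes that passed, any other receptor or surface enzyme, the 12 of highest mean CPM, the 2 markers of highest mean CPM in a list set beside a result, and the 3 most alike genes where groups did not overlap. Some markers that this rule names are not reported here. *Drd2*, *Gpr6*, *Siglech*, *Ada*, *Slc17a9*, *Slc29a2* and *Slc28a2* were added after their values were seen.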

Additional observations from a re-analysis of the deposited data

Results flagged for a closer look

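Each of the 33 tested purinergic genes was searched in both groups, 66 groups in all, for a single animal standing off by Dixon's ratio. Chance gives about 3.3 such cases, and 4 were found. *Adora2a* was at 48.4 CPM in vehicle animal 1, against 2.69 to 2.91 CPM in the other vehicle animals. *Slc29a2*, a nucleoside transporter, was at 1.11 CPM in HPβCD animal 4, against 1.65 to 1.67 CPM. *Slc28a2*, a sodium-driven nucleoside transporter, was at 7.41 CPM in HPβCD animal 3, against 4.999 to 5.39 CPM. *Slc17a9* was at 3.55 CPM in HPβCD animal 2, against 4.67 to 4.83 CPM.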

How the results depend on the processing

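Genes called numbered 287 of 14736 by edgeR, 2619 by DESeq2, 3253 by limma-voom, 11 with library totals only and 9 with the animal number as a replicate block, and 0 to 629 with single animals left out. Scaling by library totals moved the median log2 fold change of all genes from -0.05 to -0.13. Of the calls 60.3% were higher in HPβCD infarcts by edgeR, 38.9% by DESeq2 and 49.6% by limma-voom. Of the 10 genes, DESeq2 and limma-voom called 3 and every edgeR setting 0, the range with single animals left out being 0 to 0. Of the other purinergic genes edgeR called 2, DESeq2 11, limma-voom 13, the stricter filter 4 (adding *P2rx5* and *Adk*), and library totals, the block and the fit without vehicle animals 1 and 3 called 0; leaving out single animals gave 0 to 5. The labels number the animals alike in both groups and name no pairs. Deviations of same-numbered animals from their group means correlated at -0.257, 0.244, 0.329 and 0.097 for animals 1 to 4. The same-numbered HPβCD animal was the closest match for vehicle animals 2 and 3 but not for 1 and 4. With 4 animals per group, these values cannot decide whether the numbers mark pairs.

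Of 170 log2 fold changes of the 10 genes under 17 alternatives, 10 changed sign. For *Nt5e* these were 0.0012 by DESeq2, 0.0014 with its size factors, 0.0226 without a filter and 0.0162 with the block, and single animals left out gave -0.15 to 0.16. *Entpd1* was at -0.0188 without vehicle animals 1 and 3, and *Adora3* ranged from -0.0775 to 0.46 with single animals left out. Among the other genes 17 of 391 changed sign. *P2ry1* was at -0.24 by limma-voom, -0.0055 with library totals and -0.31 without vehicle animals 1 and 3, and ranged from -0.11 to 0.37 over single animals left out. *P2ry13* was at 0.0162 without a filter and 0.0312 without those animals (range -0.22 to 0.082). *Ada* was at -0.0141 with library totals (range -0.11 to 0.28), and *Slc29a2* at 0.0504 without vehicle animals 1 and 3. The cause was not tested. *P2ry2* ranged from 0.97 to 1.49, *P2ry6* from 0.48 to 0.69 and *Adora2a* from -3.32 to -0.64 over single animals left out. With 4 animals per group, differences near the interval widths given could not be resolved.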
